A study of Rattus norvegicus with 11 samples.

Results

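Expression of 5 genes of glutamate signalling was followed across 11 rat spinal cord libraries: 3 receptor subunit genes (Grin1, Grin2b and Gria1) and 2 transporter genes of astrocytes (Slc1a2 and Slc1a3). They were picked by identifier from the 32623 gene IDs of the table, and all 5 are in it. Grin1 is ENSRNOG00000011726, Grin2b is ENSRNOG00000008766, Gria1 is ENSRNOG00000045816, Slc1a2 is ENSRNOG00000005479 and Slc1a3 is ENSRNOG00000016163. These pairs of ID and name came with the selection. The gene table at hand holds all 5 symbols but no Ensembl IDs, so the pairs could not be checked against it. For the same reason other glutamate genes and markers of neurons, astrocytes or other cell types could not be looked up, and the labelled tissue was not checked against them.

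All rats were adult males of 350 to 400 g, and the tissue was spinal cord of the ipsilateral side. Rats of the PTX+SCS group (3 libraries: SCS 1, SCS 2 and SCS 5) received paclitaxel, carried an electrode and were given spinal cord stimulation at 50 Hz with 0.2 ms pulses, at what the labels give as 80% MoT. Rats of the PTX+Sham SCS group (5 libraries: sham 1 to sham 5) had the same drug and electrode without stimulation. Paclitaxel, a chemotherapy drug that stabilises microtubules and can leave a painful neuropathy, was injected into the peritoneum of both groups, each dose 1.5 mg/kg, on 4 days (1, 3, 5 and 7). Naive rats (3 libraries: naive 1 to naive 3) had no drug and no electrode. No group here had the drug without the electrode, so the contribution of each cannot be told apart. The labels do not say that each library came from its own rat, and p-values measure only the spread between these libraries.

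Glutamate is the main excitatory transmitter of the spinal cord. NMDA receptors, built from an obligatory GluN1 subunit (Grin1) with GluN2 subunits such as GluN2B (Grin2b), and AMPA receptors, with subunits such as GluA1 (Gria1), carry its signal at synapses, and in the dorsal horn they take part in the sensitisation of pain pathways. Astrocytes clear glutamate from the synapse through GLT-1 (Slc1a2) and GLAST (Slc1a3), and lower transporter levels have been linked to pain states in rodents.

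Libraries held 11243288 to 56775931 counts. Grin1 had 3838 to 21000 counts per library, Slc1a2 3244 to 13116, Slc1a3 2228 to 10887 and Gria1 510 to 2806. Grin2b was the thinnest, with 176 to 894 counts, so counting alone gives a relative error of 7.54% in sham 4, its shallowest library, and 3.34% in naive 3, its deepest. Levels are given as CPM, which is counts scaled to a common library total, after each total was adjusted by its TMM scaling factor. CPM does not correct for transcript length and is compared only between libraries, never between genes. Each gene moved within a narrow band over the 11 libraries. The highest library stood at 1.44 times the lowest for Grin1, 1.62 times for Grin2b, 1.36 times for Gria1, 1.42 times for Slc1a2 and 1.44 times for Slc1a3.

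Some libraries stood apart within their groups over all genes tested. On the first principal component of log2 CPM (35.7% of the variance) SCS 2 had the highest score, 50.7, followed by SCS 1 at 29.8 and SCS 5 at 19.2. Sham 5 had the highest score of its group, 15.5, with the other sham libraries between -23.3 and 1.86 and naive libraries between -28.9 and -23.9.

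Grin1, the gene of the NMDA receptor subunit found in every such receptor, was lowest in the stimulated libraries. Its level was 315, 266 and 326 CPM in SCS 1, SCS 2 and SCS 5. The sham libraries held 366, 373, 353, 343 and 319 CPM from sham 1 to sham 5. Naive libraries held 383, 382 and 368 CPM. All 3 stimulated libraries lay below all 3 naive libraries. Over all genes tested, 36.3% had these groups apart in either direction. Sham libraries reached into both ranges: sham 5 lay below SCS 5, and sham 2 lay above naive 3. The means were 302 ± 32 CPM in PTX+SCS (SD, n = 3), 351 ± 21 CPM in PTX+Sham SCS (SD, n = 5) and 378 ± 8.6 CPM in Naive (SD, n = 3).

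Grin2b, whose GluN2B subunit sets the slow kinetics and the ifenprodil sensitivity of the receptors it joins, had the same order of group means at a much lower number of counts. It stood at 11.9, 10.6 and 13.0 CPM in SCS 1, SCS 2 and SCS 5. The sham libraries spread widely, at 13.3, 12.4, 12.9, 15.7 and 10.3 CPM from sham 1 to sham 5. The naive libraries were at 16.7, 15.1 and 15.7 CPM. Every stimulated library was below every naive library, and 36.3% of all genes tested had these groups apart in either direction. Sham 4 lay within the naive range, and sham 5 was the lowest of all 11. Group means were 11.8 ± 1.2 CPM in PTX+SCS (SD, n = 3), 12.9 ± 1.9 CPM in PTX+Sham SCS (SD, n = 5) and 15.8 ± 0.8 CPM in Naive (SD, n = 3).

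Gria1, the AMPA receptor gene of the set, was highest on average in the naive libraries too. The stimulated libraries held 44.1, 36.7 and 48.0 CPM in SCS 1, SCS 2 and SCS 5. Levels were 46.3, 47.9, 47.1, 45.5 and 39.6 CPM from sham 1 to sham 5. In naive libraries they were 49.7, 47.5 and 49.1 CPM. All 3 groups overlapped. The lowest values were those of SCS 2 and sham 5, and SCS 1, sham 1, sham 3 and sham 4 also lay below every naive library. The means were 42.9 ± 5.7 CPM in PTX+SCS (SD, n = 3), 45.3 ± 3.3 CPM in PTX+Sham SCS (SD, n = 5) and 48.8 ± 1.2 CPM in Naive (SD, n = 3). The gap between PTX+SCS and PTX+Sham SCS was smaller than the SD of either group.

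Slc1a2, the transporter gene behind most glutamate uptake in the adult rodent forebrain, showed no order by group. It was at 203, 238 and 247 CPM in SCS 1, SCS 2 and SCS 5. It was at 246, 247, 230, 290 and 229 CPM from sham 1 to sham 5. It was at 248, 248 and 230 CPM in the naive libraries. The extremes were single libraries, SCS 1 at the bottom and sham 4 at the top, and the remaining 9 lay between 229 and 248 CPM. Means were 229 ± 23 CPM in PTX+SCS (SD, n = 3), 248 ± 25 CPM in PTX+Sham SCS (SD, n = 5) and 242 ± 10 CPM in Naive (SD, n = 3).

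Slc1a3, the other astrocyte transporter gene, ran opposite to the receptor genes. The stimulated libraries held 197, 266 and 208 CPM in SCS 1, SCS 2 and SCS 5. The sham libraries held 190, 213, 213, 199 and 216 CPM from sham 1 to sham 5. Naive libraries held 192, 185 and 191 CPM. All stimulated libraries were above all naive libraries, and 36.3% of all genes tested had these groups apart in either direction. SCS 1 and SCS 5 lay inside the sham range and only SCS 2 stood clear of it. The means were 224 ± 37 CPM in PTX+SCS (SD, n = 3), 206 ± 12 CPM in PTX+Sham SCS (SD, n = 5) and 189 ± 3.7 CPM in Naive (SD, n = 3).

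**Figure D1:**
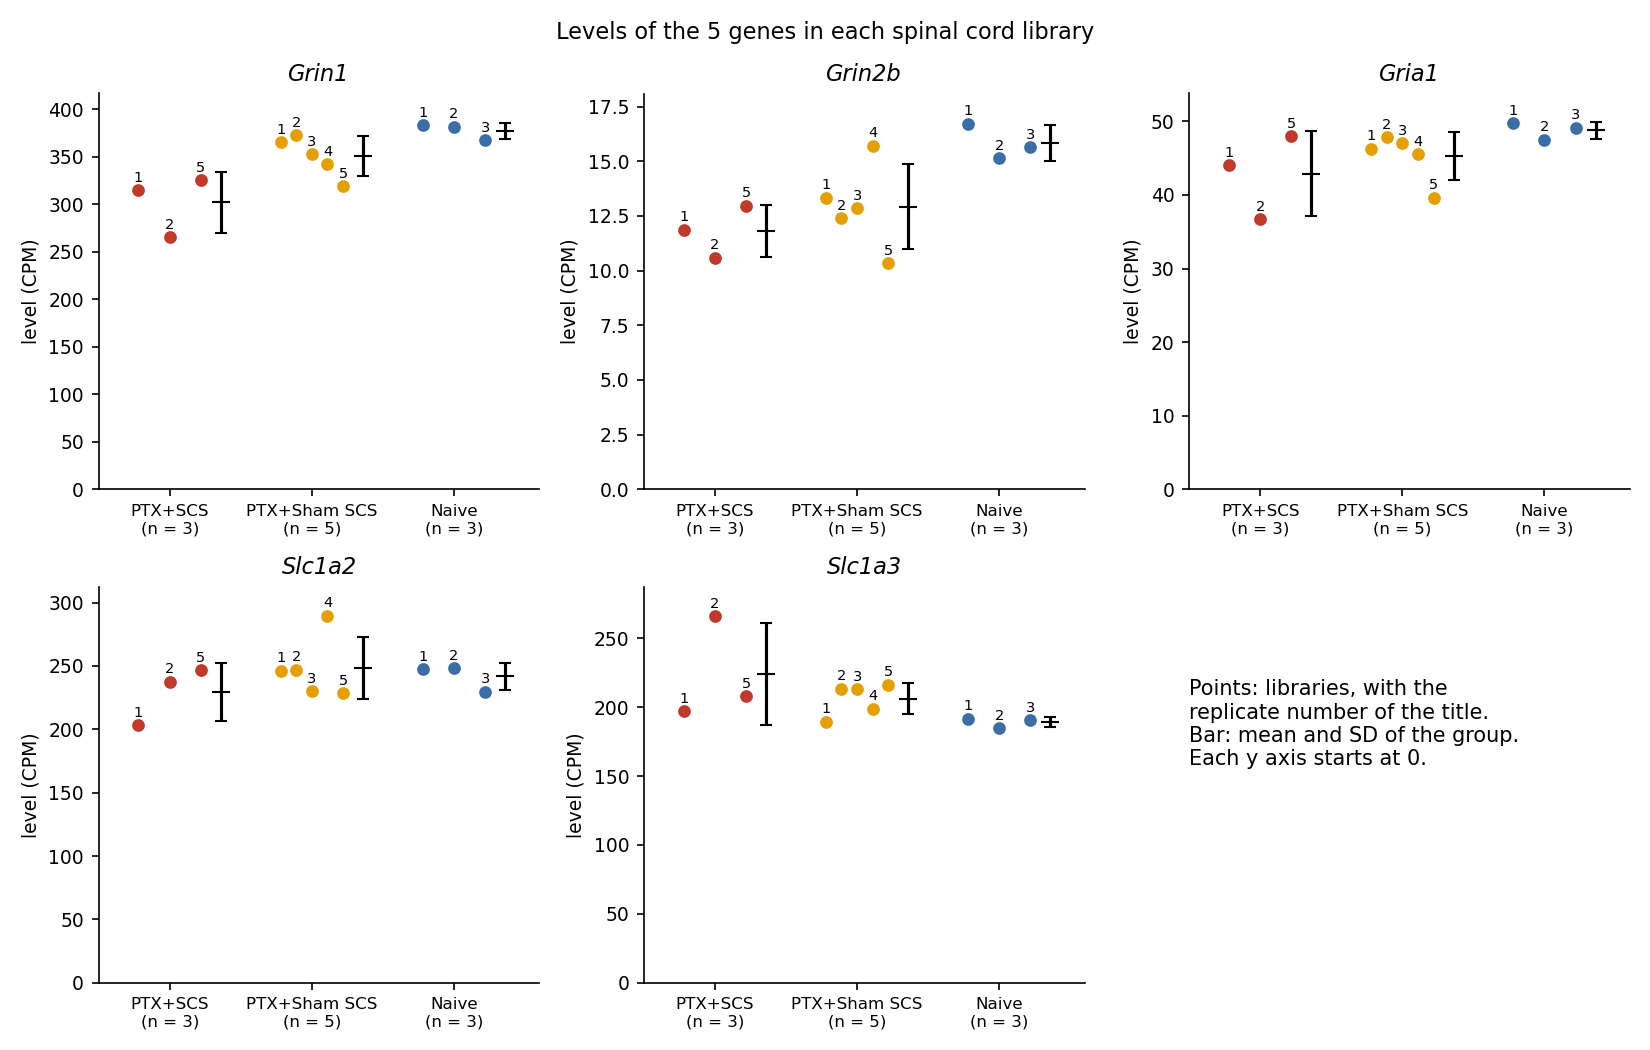
Level in CPM (y axes, from 0) of each gene in every library, by group, with the replicate number beside each point and the group mean ± SD as a bar. Grin1 and Grin2b are lower in all 3 PTX+SCS libraries than in all 3 Naive libraries. These groups lie apart, in either direction, for 36.3% of all genes tested. SCS 2 is the lowest library for Grin1 and Gria1 and the highest for Slc1a3.

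The first comparison, PTX+Sham SCS against Naive, asks what differed after drug and electrode together. The 5 genes were chosen with earlier results of these data known, and the p-values here and in the next 2 comparisons come from the fit over all genes. By edgeR's quasi-likelihood test 0 of the 5 genes passed (adjusted p under 0.05), as by DESeq2 and limma-voom, and 22 of the 15758 genes tested did (0.14%). The 3 receptor genes had negative fitted log2 fold changes and the 2 transporter genes positive ones, though that of Slc1a2 turned to -0.015 without sham 4. The largest was that of Grin2b, at -0.30 ± 0.11 (SE, edgeR adjusted p = 0.519), with 12.9 CPM in PTX+Sham SCS against 15.8 CPM in Naive. It was the single member with an unadjusted p under 0.05, a mark reached by 7.98% of all genes. Its 95% interval ran from 0.686 to 0.963 of the naive level. Intervals here and below are per gene and not adjusted for the number of genes tested. They can leave out no change for a gene that did not pass.

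Grin1 stood at a log2 difference of -0.11 ± 0.07 (SE, edgeR adjusted p = 0.716) and Gria1 at -0.11 ± 0.08 (SE, edgeR adjusted p = 0.764). The 95% intervals ran from 0.839 to 1.03 of the naive level for Grin1 and from 0.821 to 1.05 for Gria1, ranges that hold both no change and a decrease. Without sham 5 the log2 difference of Gria1 was -0.063. Slc1a2 had a log2 difference of 0.04 ± 0.08 (SE, edgeR adjusted p = 0.928), with an interval from 0.912 to 1.16 of the naive level. Slc1a3 had 0.13 ± 0.08 (SE, edgeR adjusted p = 0.723), with an interval from 0.966 to 1.23. The members' median log2 fold change was -0.11, against 0.01 over all genes tested. Sham and naive libraries overlapped for all 5 members, and they were apart for 7.03% of all genes.

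The second comparison, PTX+SCS against PTX+Sham SCS, sets apart stimulation, since drug and electrode were given in both groups. Again 0 of 5 members passed by the edgeR test, as by DESeq2 and limma-voom, against 563 of 15758 genes by edgeR (3.57%). Grin1 came closest, with 302 CPM in PTX+SCS against 351 CPM in PTX+Sham SCS, a log2 difference of -0.21 ± 0.07 (SE, edgeR adjusted p = 0.100). It was the single member with an unadjusted p under 0.05, as were 20.1% of all genes. The interval of Grin1, also unadjusted, ran from 0.778 to 0.956 of the sham level.

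This value for Grin1 depended on which libraries entered. Without SCS 2 its log2 fold change was -0.12 (edgeR adjusted p = 0.444), and without sham 5 it was -0.25 and passed (edgeR adjusted p = 0.0389). The other receptor genes were at log2 fold changes of -0.12 ± 0.12 for Grin2b (SE, edgeR adjusted p = 0.627) and -0.07 ± 0.08 for Gria1 (SE, edgeR adjusted p = 0.680). The transporter genes were at -0.11 ± 0.08 for Slc1a2 (SE, edgeR adjusted p = 0.457) and 0.12 ± 0.08 for Slc1a3 (SE, edgeR adjusted p = 0.458). Without SCS 2 the value of Gria1 changed sign to 0.031 and that of Slc1a3 to -0.019. Grin2b was at -0.039 without sham 4, and Slc1a2 at -0.018 without SCS 1. The intervals of these 4 genes ran from 0.773 to 1.10 of the sham level for Grin2b, 0.839 to 1.07 for Gria1, 0.820 to 1.04 for Slc1a2 and 0.961 to 1.22 for Slc1a3. The median over the members was -0.11, against -0.01 over all genes. No member had stimulated and sham libraries apart, and 10.2% of all genes did.

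The third comparison, PTX+SCS against Naive, spans drug, electrode and stimulation. Here Grin1 and Grin2b, the 2 NMDA receptor genes of the set, passed with lower levels in PTX+SCS, and Gria1, Slc1a2 and Slc1a3 did not pass. Grin1 averaged 302 ± 32 CPM in PTX+SCS and 378 ± 8.6 CPM in Naive (SD, n = 3 each), a log2 difference of -0.32 ± 0.08 (SE, edgeR adjusted p = 0.0134). Grin2b averaged 11.8 ± 1.2 CPM in PTX+SCS and 15.8 ± 0.8 CPM in Naive (SD, n = 3 each), a log2 difference of -0.42 ± 0.13 (SE, edgeR adjusted p = 0.0401). In linear terms Grin1 was at 0.801 of the naive level (95% interval 0.714 to 0.898) and Grin2b at 0.748 (95% interval 0.620 to 0.903).

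These 2 of 5 members stand against 2342 of 15758 genes that passed in the same comparison (14.9%), so a call was common here. In size, the Grin1 change exceeded that of 75.7% of all genes and the Grin2b change that of 82.7%. In spinal cord tissue, fewer cells that express a gene and less of its RNA per cell cannot be told apart. Neither call held in every alternative: Grin1 missed the threshold in 4 of 20 and Grin2b in 10 of 20. Without SCS 2, Grin1 was at a log2 fold change of -0.22 (edgeR adjusted p = 0.0610) and Grin2b at -0.34 (edgeR adjusted p = 0.181). Grin1 also missed the threshold without naive 1 (edgeR adjusted p = 0.0617) or naive 2 (edgeR adjusted p = 0.0675). Grin2b missed it in each fit without a naive library (edgeR adjusted p = 0.101 to 0.145). Over the 20 alternatives the adjusted p ran from 0.00151 to 0.0965 for Grin1 and from 0.0169 to 0.181 for Grin2b, and both stayed negative in all of them.

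Slc1a3 had the one positive value, at 224 CPM in PTX+SCS against 189 CPM in Naive and a log2 difference of 0.24 ± 0.09 (SE, edgeR adjusted p = 0.0892). Its interval, not adjusted for the number of genes tested, ran from 1.03 to 1.36 of the naive level. SCS 2 carried much of this: without it the log2 fold change was 0.12 (edgeR adjusted p = 0.360), and without SCS 1 it was 0.34 and passed (edgeR adjusted p = 0.0225). Gria1 was at -0.18 ± 0.09 (SE, edgeR adjusted p = 0.200) and Slc1a2 at -0.08 ± 0.09 (SE, edgeR adjusted p = 0.610). Without SCS 2 the value of Gria1 was -0.070, and without SCS 1 that of Slc1a2 was 0.019. The interval for Slc1a2, from 0.831 to 1.08 of the naive level, spans lower and higher levels. The members' median was -0.18, against -0.02 over all genes. Unadjusted p-values under 0.05 were reached by 3 of 5 members and 29.3% of all genes. The same 3 members, Grin1, Grin2b and Slc1a3, had stimulated and naive libraries apart, as did 36.3% of all genes. The comparisons with PTX+Sham SCS and Naive share libraries, so their values for a gene are not independent of one another.

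**Figure D2:**
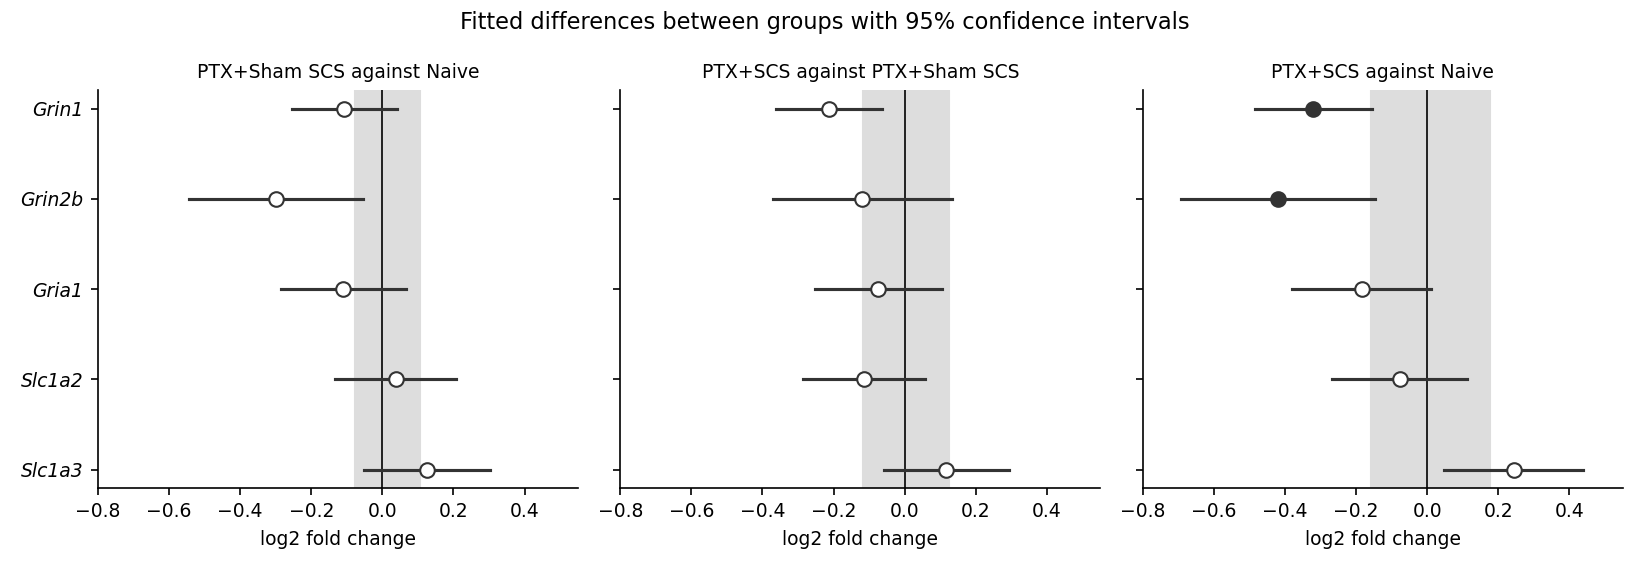
Log2 fold change (x axis) of each gene in the 3 comparisons. Lines are 95% confidence intervals, not adjusted for the number of genes tested. Filled points have an edgeR adjusted p under 0.05, and the grey band is the interquartile range over all 15758 genes tested. Grin1 at -0.32 and Grin2b at -0.42 in PTX+SCS against Naive are the only filled points, and Slc1a3 lies on the positive side in each panel.

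Ratios of counts inside one library do not depend on how libraries are scaled to each other. They compare libraries and say nothing of the amounts of 2 genes in one library, since transcript lengths were not used. The balance of GluN2B to GluN1 messages, Grin2b over Grin1, was 0.0391 ± 0.0013 in PTX+SCS (SD, n = 3), 0.0369 ± 0.0053 in PTX+Sham SCS (SD, n = 5) and 0.0419 ± 0.0021 in Naive (SD, n = 3). The 3 groups overlapped. The ratio in PTX+SCS was 0.933 of that in Naive, a smaller gap than that of either gene alone.

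The ratio of the AMPA to the obligatory NMDA subunit gene, Gria1 over Grin1, did separate the stimulated libraries. It was 0.140, 0.138 and 0.147 in SCS 1, SCS 2 and SCS 5. It was 0.127, 0.128, 0.133, 0.133 and 0.124 from sham 1 to sham 5. In naive libraries it was 0.130, 0.124 and 0.134. All 3 stimulated libraries were above all 8 others. How often the ratio of 2 other genes separates in this way was not computed. Of single genes, 36.3% had stimulated and naive libraries apart and 10.2% had stimulated and sham libraries apart. Those shares are for single genes and do not tell how common such a separation is for ratios. The mean was 0.142 ± 0.0049 in PTX+SCS (SD, n = 3), 0.129 ± 0.0039 in PTX+Sham SCS (SD, n = 5) and 0.129 ± 0.0046 in Naive (SD, n = 3). On the log2 scale the ratio was 0.13 higher in PTX+SCS than in PTX+Sham SCS (0.11 to 0.15 with any 1 library left out) and 0.13 higher than in Naive (0.10 to 0.16). SCS 2, the library that stood furthest out in the levels of Grin1, Gria1 and Slc1a3, had the lowest of the 3 stimulated ratios. The ratio was not tested.

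The 2 transporter genes did not keep one ratio. Slc1a3 over Slc1a2 was 0.970, 1.12 and 0.844 in SCS 1, SCS 2 and SCS 5. It ran from 0.687 in sham 4 to 0.946 in sham 5, with a median of 0.864. It was 0.774, 0.745 and 0.830 in the naive libraries. Stimulated libraries overlapped sham libraries and lay above the naive ones, though SCS 5 cleared naive 3 only narrowly.

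Transporter counts over receptor counts (Slc1a2 and Slc1a3 summed, over Grin1, Grin2b and Gria1 summed, a sum in which Grin1 dominates) were lowest in all naive libraries. They were 1.08, 1.61 and 1.18 in SCS 1, SCS 2 and SCS 5. They were 1.02, 1.06, 1.07, 1.21 and 1.21 from sham 1 to sham 5. They were 0.977, 0.973 and 0.972 in naive 1 to naive 3. The SD was 0.283 in PTX+SCS (n = 3), 0.0867 in PTX+Sham SCS (n = 5) and 0.0024 in Naive (n = 3). All 8 libraries with drug and electrode lay above all 3 naive libraries. No member alone had sham and naive libraries apart. How often such a ratio of other genes separates was not computed, and this ratio was not tested. On the log2 scale the ratio was 0.19 higher in PTX+Sham SCS than in Naive (0.16 to 0.22 with any 1 library left out) and 0.38 higher in PTX+SCS than in Naive (0.21 to 0.50, the lowest without SCS 2). Between PTX+SCS and PTX+Sham SCS the difference was 0.19, and it was 0.018 without SCS 2.

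**Figure D3:**
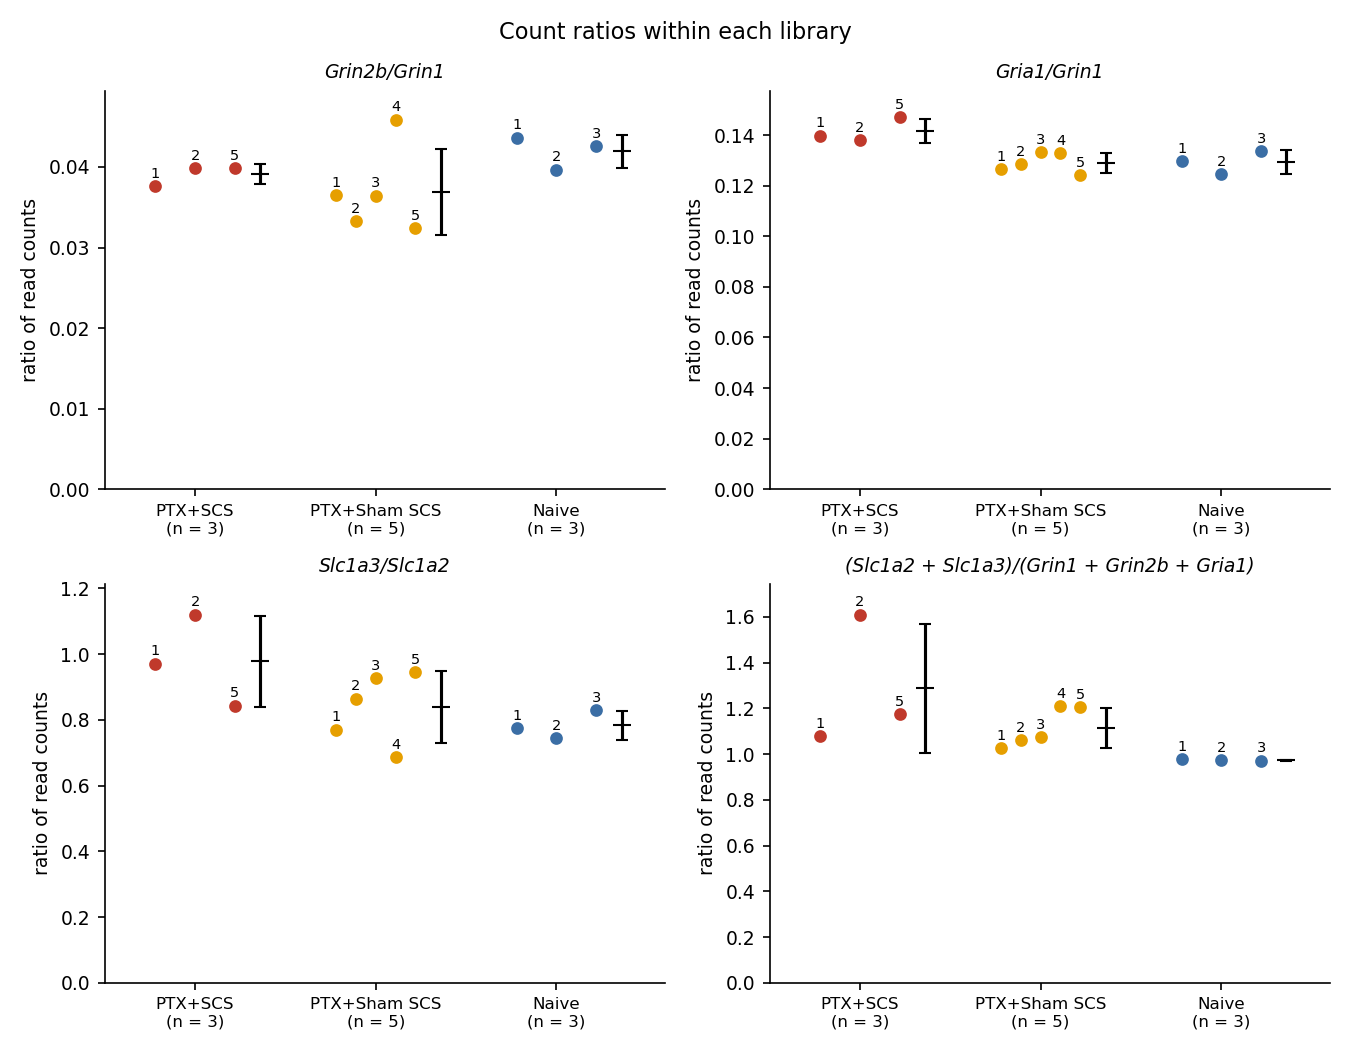
Ratios of read counts within each library (y axes, from 0) by group, with replicate numbers beside the points and the group mean ± SD as a bar. Gria1 over Grin1 is 0.138 to 0.147 in the 3 PTX+SCS libraries and 0.124 to 0.134 in the 8 others, and transporters over receptors lie at 0.972 to 0.977 in the Naive libraries and at 1.02 to 1.61 in the rest.

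Across libraries the receptor genes moved together and Slc1a3 moved against them. Over the 11 libraries the Pearson correlation of log2 CPM was 0.88 for Grin1 and Gria1 (Spearman 0.79), 0.74 for Grin1 and Grin2b (Spearman 0.70) and 0.79 for Grin2b and Gria1 (Spearman 0.68). With each group's mean subtracted these were 0.94, 0.54 and 0.69, over all 11 libraries and not within any single group. In the 3 naive libraries, which span a narrow range, Grin1 was lowest in naive 3 and Gria1 in naive 2. These are descriptions over libraries that share a scaling and differ in depth, and carry no p. Among 14459 other genes with a mean of at least 1 CPM, Gria1 ranked 512th and Grin2b 1708th in likeness to Grin1, Grin1 ranked 192nd and Grin2b 837th in likeness to Gria1, and Gria1 ranked 530th and Grin1 880th in likeness to Grin2b. Many other genes were therefore closer to each of them than they were to one another. The gene most like Grin1 had a correlation of 0.986, and the top value was 0.966 for Grin2b, 0.970 for Gria1, 0.881 for Slc1a2 and 0.944 for Slc1a3. Those genes have no symbol here and are not named.

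Slc1a3 correlated with Grin1 at -0.82 (Spearman -0.60), with Gria1 at -0.79 (Spearman -0.47) and with Grin2b at -0.73 (Spearman -0.71). The first 2 values leaned on SCS 2: without it they were -0.51 and -0.44, while that with Grin2b stayed between -0.78 and -0.70 whichever library was left out. With each group's mean subtracted the correlations of Slc1a3 with Grin1, Gria1 and Grin2b were -0.75, -0.68 and -0.54. These cover all 11 libraries, not any single group, and were not computed without SCS 2. They therefore cannot show what remains without that library. Of the 14459 other genes, 8.06% had a lower correlation with Grin1 than Slc1a3 had. That share was 3.47% for Gria1 and 4.18% for Grin2b. Slc1a2 correlated at 0.27 with Grin1 (Spearman 0.55) and at 0.49 with Grin2b (Spearman 0.65). It was at 0.21 with Gria1 (Spearman 0.36) and at -0.10 with Slc1a3 (Spearman -0.27). With each group's mean subtracted the values in this order were 0.014, 0.61, 0.11 and 0.061. By each of these measures Grin2b was the member closest to Slc1a2.

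SCS 2 showed this movement most. There the log2 level was below the gene's 11-library mean by 0.37 for Grin1, by 0.32 for Grin2b and by 0.31 for Gria1, and it was 0.37 above the mean for Slc1a3. In sham 5, Grin1 deviated by -0.11, Grin2b by -0.36, Gria1 by -0.20 and Slc1a3 by 0.08. SCS 2 and sham 5 are also the libraries at the upper end of their groups on the first principal component over all genes, given above. The part of these library differences in the results was not tested.

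**Figure D4:**
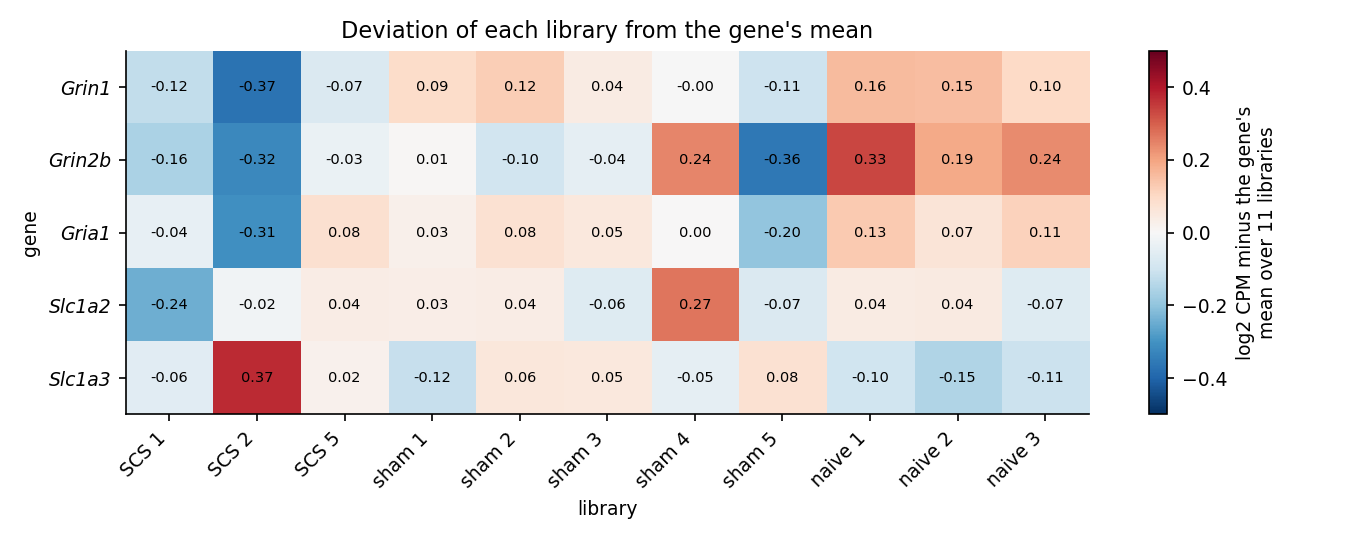
Log2 CPM of each gene (rows) in each library (columns) minus the gene's mean over the 11 libraries, printed in each cell and coloured from blue (lower) to red (higher). SCS 2 is low for the 3 receptor genes (-0.37, -0.32 and -0.31) and high for Slc1a3 (0.37), while Slc1a2 departs most in SCS 1 and sham 4.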

How the data were processed

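Libraries were made from 1 ug of total RNA by poly(A) selection with a directional kit, per the labels' protocols. The deposited values are whole-number counts per Ensembl gene ID made by the authors. HISAT2, featureCounts, DESeq2 and rn6 are named in the submitters' processing notes; which versions, annotation and strand setting were used is not given in the sources used here, so counts of overlapping genes are uncertain. Groups follow the group label (titles mark PTX+SCS with S and PTX+Sham SCS with X). Another 17 columns were not used here.

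The members and lists were chosen with earlier results of these data known. The rule was to name all 5 members and, where IDs carry symbols, the genes most like them; of 47357 reference genes 0 carry an Ensembl ID, so the glutamate and cell type lists could not be applied. All 11 libraries entered 1 fit (filterByExpr, leaving 15758 genes; TMM; glmQLFit with robust estimation; glmQLFTest; edgeR 4.0.16, R 4.3.3), with 8 residual degrees of freedom, two-sided tests and Benjamini-Hochberg adjustment over all genes tested. SE is the log2 fold change divided by the square root of F, and 95% intervals use the fit's degrees of freedom. The intervals are per gene and not adjusted for the number of genes tested. A prior count of 2 was added for log2 CPM. Spread estimated within each group (biological coefficient of variation) was 14.4% for PTX+SCS, 11.0% for PTX+Sham SCS and 6.82% for Naive, so the pooled spread may understate that of PTX+SCS. No libraries of 1 group agreed within sampling noise (chi-square per degree of freedom 5.10 to 29.5). The fit was tested on simulated data. The 20 alternatives covered scaling, filter, DESeq2 1.42.0, limma 3.58.1 (voom, with and without quality weights), fits of 2 groups, a replicate block, thinning to 11243288 counts and leaving out each library.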

Additional observations from a re-analysis of the deposited data

Results flagged for a closer look

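Among 9 values examined in the PTX+Sham SCS group (5 gene levels and 4 count ratios), 1 library stood far from the rest of its group by Dixon's test: Gria1 in sham 5, at 39.6 CPM, with the other 4 sham libraries between 45.5 and 47.9 CPM. The gap took 0.714 of the group's range, just over the critical 0.71. Chance flags about 1 in 20 such groups. Slc1a2 in sham 4, at 290 CPM, came next at 0.701 and did not reach it.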

How the results depend on the processing

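Scaling by median ratio or upper quartile, no filter on low counts, DESeq2, limma-voom with or without quality weights, and fits of 2 groups each left 0, 0 and 2 members called (in the order PTX+Sham SCS against Naive, PTX+SCS against PTX+Sham SCS, PTX+SCS against Naive). Thinning left 1 in the third comparison, since Grin2b missed (edgeR adjusted p = 0.0570). Leaving out 1 library gave 0, 0 to 1 and 0 to 2 members; the 2 without SCS 1 were Grin1 and Slc1a3. With the replicate block, which leaves 4 residual degrees of freedom, 0 members passed in the third comparison (Grin1 0.0965, Grin2b 0.125, edgeR adjusted p), and Slc1a2 in sham against naive turned to -0.035. Same-numbered libraries had correlations of deviations from -0.17 to 0.13, and the numbers were not treated as pairs. Signs also turned when 1 library was left out for Slc1a2 in sham against naive (-0.015 to 0.066) and stimulated against naive (-0.13 to 0.019), and in stimulated against sham for Gria1 (-0.16 to 0.031) and Slc1a3 (-0.019 to 0.22). None of these values had passed. Over all genes, calls in the same order of comparisons numbered 22, 563 and 2342; 9, 5 and 672 with the block; 133 and 1136 in the first and second with DESeq2; 44 in the first with quality weights; 140 in the second with 2 groups; and 6 to 56, 36 to 1057 and 1018 to 2786 with 1 library left out. The cause was not tested. At this depth counting error is at most 2.12% for Grin1, Slc1a2 and Slc1a3 and up to 7.54% for Grin2b.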
